A study of Mus musculus with 8 samples.

Results

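The immediate early genes are described here through 10 genes of the embryonic mouse cortex: the AP-1 genes Fos, Fosb, Jun and Junb, the zinc finger genes Egr1, Egr2, Egr3 and Egr4, the nuclear receptor gene Nr4a1 and the phosphatase gene Dusp1. Members were chosen by symbol. Each was read by 1 probe set that the platform annotation gives to that gene alone, so all 10 were measured, among 19938 genes on 28853 probe sets. RNA came from brain cortex of embryos at E16 and was measured on 8 Affymetrix arrays that read whole transcripts. The labels give 4 arrays of bitransgenic embryos carrying GFAP-tTA and TetO-VEGF-A164, in which overexpression of VEGF was induced, and 4 of wild-type controls without TetO-VEGF-A164, all on a mixed strain background. GFAP-tTA is a tetracycline-controlled transactivator under the promoter of Gfap, a gene of astrocytes and radial glia, and it drives the TetO-linked transgene. No source used here says whether the controls carried GFAP-tTA, so the 2 transgenes cannot be told apart. Nothing in the labels says whether arrays are single embryos, pools or separate litters, and p-values measure only the spread between these arrays.

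Immediate early genes are transcribed within minutes of a stimulus, without new protein synthesis, when growth factors, calcium entry or stress activate MAP kinases and the transcription factors SRF, its ETS partners and CREB. Fos and Jun proteins pair to form AP-1, EGR proteins bind GC-rich DNA, and Dusp1 switches MAP kinases off again. VEGF-A acts through the receptor Kdr, which activates the ERK cascade in endothelial cells, and Egr3 and Nr4a1 are among the VEGF-induced genes known there. In cortex the same genes are best known as markers of neuronal activity.

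Values are deposited log values, read here as log2, each centred on the median of its probe set over the 8 arrays. They show how arrays differ in a gene, not how strongly it is expressed, and levels of different genes cannot be compared. For the same reason the labelled tissue could not be checked against the levels of its markers. The interquartile range of all probe sets on an array lay between 0.061 and 0.142, widest in VEGF 2, and array medians lay between -0.0091 and 0.0154. Vegfa, the gene of the transgene, differed by 0.053 with an SE of 0.051 (limma, adjusted p = 0.748) and so does not check the labels. Its probe set may or may not reach into the transgene, which no source used here settles. The arrays are therefore called VEGF-labelled, and all differences are VEGF-labelled minus control.

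Stretches upstream of the start sites are shown for 4 members. They include Dusp1, the member whose groups did not overlap, and Fos, which gave the Fos genes of AP-1 their name. Egr4 and Egr2 are also shown, each of which varied with Junb across arrays. The sequences are RefSeq's on GRCm38.p6, and 8 of the 10 members had an entry in the promoter table. Searched on both strands were the CRE, bound by CREB (TGACGTCA), its core (TGACGT, or ACGTCA on the other strand), which the full CRE contains and which was added after the sequences were seen, the SRF CArG box, the AP-1 site (TGANTCA), an EGR site (GCGNGGGCG) and a TATA box (TATAAA). Capitals mark each match.
Dusp1, chr17:26508473-26508722, minus strand: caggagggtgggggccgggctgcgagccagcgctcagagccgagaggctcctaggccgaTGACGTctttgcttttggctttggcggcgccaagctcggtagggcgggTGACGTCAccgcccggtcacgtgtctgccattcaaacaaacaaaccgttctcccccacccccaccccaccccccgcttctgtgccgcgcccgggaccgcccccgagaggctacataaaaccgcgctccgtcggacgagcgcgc
Fos, chr12:85473640-85473889, plus strand: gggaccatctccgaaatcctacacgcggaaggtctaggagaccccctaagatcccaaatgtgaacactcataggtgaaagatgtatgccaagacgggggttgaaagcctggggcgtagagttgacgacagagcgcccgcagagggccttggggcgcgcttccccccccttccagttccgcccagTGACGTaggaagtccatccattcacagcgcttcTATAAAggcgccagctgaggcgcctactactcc
Egr4, chr6:85513590-85513839, minus strand: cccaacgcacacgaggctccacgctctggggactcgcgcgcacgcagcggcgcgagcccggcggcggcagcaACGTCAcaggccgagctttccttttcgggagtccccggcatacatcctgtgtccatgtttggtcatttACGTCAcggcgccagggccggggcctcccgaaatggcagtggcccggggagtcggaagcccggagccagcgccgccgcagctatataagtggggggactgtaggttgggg
Egr2, 30 bases with the CArG box and the CRE core, chr10:67537793-67537822, plus strand: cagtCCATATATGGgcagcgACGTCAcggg

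The full CRE was found in Dusp1 alone among the 8 members, 143 to 136 bases before its start, and in 1.55% of 32851 promoter windows of 250 bases. The CRE core was found in 4 members, Dusp1, Egr2, Egr4 and Fos, and in 6.47% of windows. In Fos it lay 66 to 61 bases before the start, upstream of a TATA box, and Egr4 held it at 2 places. A CArG box was found in Egr2 alone among these 8 and in 1.47% of windows. Members without an entry were not searched, so nothing is said of their sites. The EGR site was found in Fosb and Nr4a1 and in 4.7% of windows, and the AP-1 site in 0 members and 6.75% of windows. A member was counted if any of its windows matched, whereas the percentages are of single windows, so the counts and percentages are unlike measures. Egr2 had several windows, some of them overlapping. The windows reach only 250 bases upstream, and a match describes letters, not a bound site.

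Across the groups the 10 genes differed little. The differences ran from -0.19 in Dusp1 to 0.14 in Egr1, with a median of -0.050 beside -0.010 over all genes tested. Members with a lower mean in the VEGF-labelled arrays numbered 7 of 10, where 56.7% of all genes had a lower mean and 43.3% a higher one. With limma and Benjamini-Hochberg adjustment over all genes, 0 of 10 members passed an adjusted p of 0.05, as did 0 of 19938 genes (0% called), and the methods' t-test also gave 0 after adjustment. At an unadjusted limma p under 0.05 there was 1 member, Dusp1, on the lower side, where 7.84% of all genes lay (4.62% lay on the higher side). In 9 of the 10 members the range of the VEGF-labelled arrays overlapped that of the controls, and the groups did not overlap in 6.84% of all genes. With 10 members, 1 lies near this share. It also lies near the 12.5% of all genes with an unadjusted limma p under 0.05 in either direction.

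**Figure D1:**
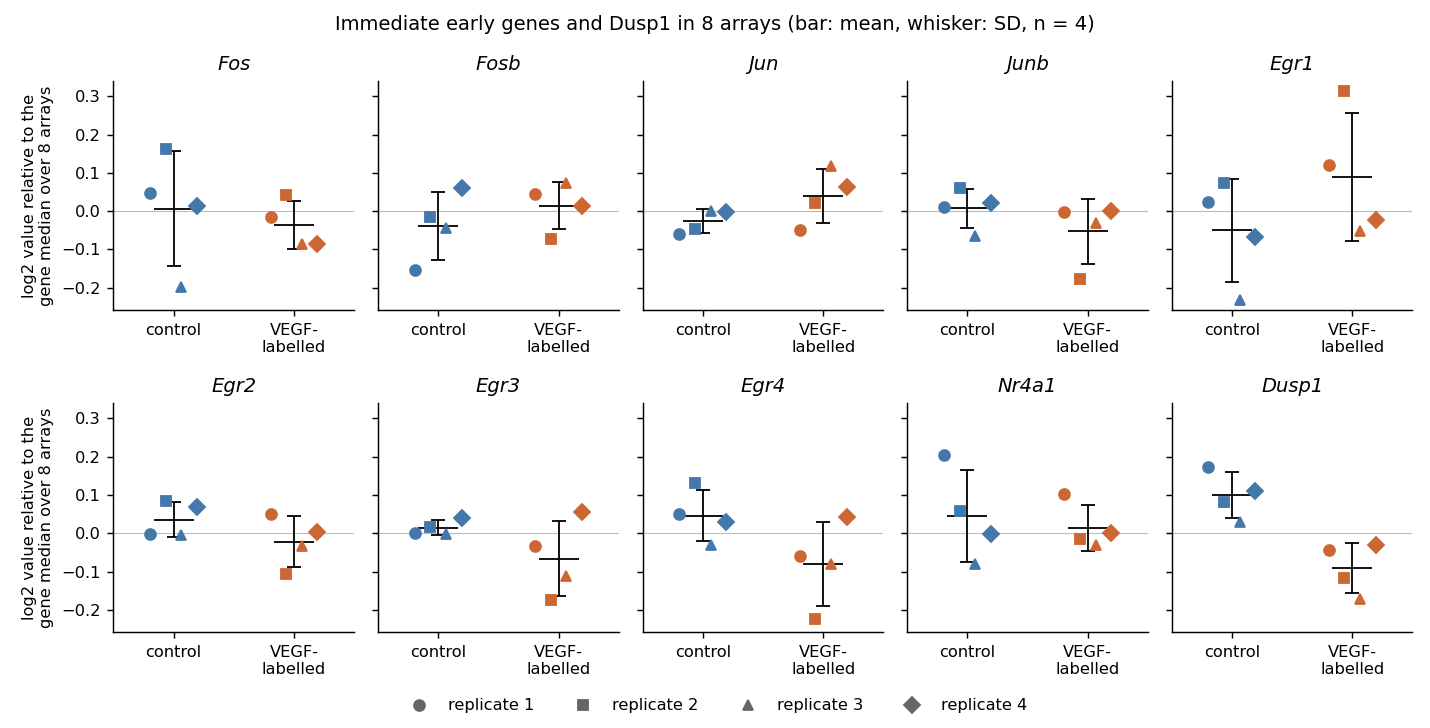
Value of each of the 10 genes in each array, as log2 relative to the gene's median over the 8 arrays (vertical axis), for control and VEGF-labelled arrays (horizontal axis). Marker shape gives the replicate number, the long bar the mean and the whiskers the SD (n = 4). The groups are apart in Dusp1, where all control arrays lie at or above 0.0295 and all VEGF-labelled arrays at or below -0.0295, and overlap in the other 9 genes.

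Among the AP-1 genes, Fos, whose protein needs a Jun partner to bind DNA, was at 0.048, 0.16, -0.20 and 0.014 in control 1 to 4 and at -0.014, 0.042, -0.085 and -0.086 in VEGF 1 to 4. Its highest and its lowest array were both controls, control 2 and control 3, and they enclosed the whole VEGF-labelled group. The difference was -0.043 with an SE of 0.072 (limma, adjusted p = 0.876), with a 95% interval from -0.20 to 0.12, or 0.868-fold to 1.09-fold if the base is 2. Without control 2 the difference of Fos was 0.0089.

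Fosb, the Fos paralogue that gives rise to the long-lived splice form deltaFosB, was at -0.15, -0.015, -0.045 and 0.060 in the controls and at 0.044, -0.072, 0.073 and 0.015 in the VEGF-labelled arrays. Control 1 lay below all other arrays. The difference was 0.053 with an SE of 0.052 (limma, adjusted p = 0.761), and 0.015 without control 1.

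Jun, a target of the JNK kinases and a partner of Fos, was at -0.059, -0.047, 0.0010 and -0.0010 in the controls and at -0.049, 0.021, 0.12 and 0.063 in the VEGF-labelled arrays. VEGF 2, VEGF 3 and VEGF 4 lay above all controls, while VEGF 1 lay among them. The difference was 0.065 with an SE of 0.042 (limma, adjusted p = 0.594), with a 95% interval from -0.030 to 0.16. It was 0.038 without VEGF 3, and 0.094 without VEGF 1 (limma, unadjusted p = 0.044, adjusted p = 0.355, from 0.355 to 0.818 over all alternatives).

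Junb, a weaker activator than Jun that can oppose it, was at 0.012, 0.059, -0.064 and 0.022 in the controls and at -0.0016, -0.18, -0.032 and 0.0016 in the VEGF-labelled arrays. VEGF 2 lay below all other arrays, and the other 3 VEGF-labelled arrays fell within the range of the controls. The difference was -0.060 with an SE of 0.049 (limma, adjusted p = 0.700), and -0.018 without VEGF 2.

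Of the EGR genes, Egr1, the activity marker also known as Zif268, had the widest span of the 10 genes, 0.54, and the largest residual SD, 0.15, at the percentile 90.4 of all genes. It was at 0.024, 0.073, -0.23 and -0.066 in the controls and at 0.12, 0.31, -0.052 and -0.024 in the VEGF-labelled arrays. VEGF 1 and VEGF 2 lay above all controls, while VEGF 3 and VEGF 4 lay among them. The difference was 0.14 with an SE of 0.091 (limma, adjusted p = 0.599), with a 95% interval from -0.067 to 0.35, and it was 0.065 without VEGF 2 and 0.079 without control 3.

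Egr2, also known as Krox20 and needed for hindbrain segments and Schwann cell myelin, was at -0.0023, 0.083, -0.0045 and 0.068 in the controls and at 0.051, -0.11, -0.033 and 0.0023 in the VEGF-labelled arrays. VEGF 2 and VEGF 3 lay below all controls. The difference was -0.058 with an SE of 0.043 (limma, adjusted p = 0.656), and -0.029 without VEGF 2.

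Egr3, an EGR gene that VEGF induces in endothelial cells, was at 0.0019, 0.018, -0.0019 and 0.041 in the controls and at -0.033, -0.17, -0.11 and 0.055 in the VEGF-labelled arrays. The controls spread little (SD 0.020, n = 4) and the VEGF-labelled arrays more (SD 0.099, n = 4), with VEGF 1, VEGF 2 and VEGF 3 below all controls and VEGF 4 above them. The difference was -0.081 with an SE of 0.050 (limma, adjusted p = 0.571), with a 95% interval from -0.19 to 0.032. Without VEGF 4 it was -0.12 (limma, adjusted p = 0.261, from 0.261 to 0.791 over all alternatives), and without VEGF 2 -0.044.

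Egr4, expressed mainly in neurons, was at 0.051, 0.13, -0.030 and 0.030 in the controls and at -0.059, -0.22, -0.081 and 0.044 in the VEGF-labelled arrays. As in Egr3, VEGF 1, VEGF 2 and VEGF 3 lay below all controls, while VEGF 4 lay among them. The difference was -0.13 with an SE of 0.060 (limma, unadjusted p = 0.063, adjusted p = 0.436), with a 95% interval from -0.26 to 0.0084, or 0.835-fold to 1.01-fold. It was -0.078 without VEGF 2 and -0.17 without VEGF 4 (limma, adjusted p = 0.238, from 0.238 to 0.744 over all alternatives).

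Nr4a1, the orphan nuclear receptor Nur77, is likewise known as a VEGF-induced gene of endothelial cells. It was at 0.21, 0.058, -0.081 and -0.0016 in the controls and at 0.10, -0.016, -0.030 and 0.0016 in the VEGF-labelled arrays. Control 1 was the highest array and control 3 the lowest, so that the controls again enclosed the other group. The difference was -0.030 with an SE of 0.062 (limma, adjusted p = 0.903), and 0.023 without control 1. Of 11 endothelial markers, Kdr and Flt1 among them, 4 had a higher and 7 a lower mean in the VEGF-labelled arrays, with a median difference of -0.00096. The groups did not overlap in 0 of these markers, beside 6.84% of all genes. Their mean value lay between -0.19 and 0.10 in the controls and between -0.28 and 0.064 in the VEGF-labelled arrays, lowest in control 3 and VEGF 3. In bulk cortex, fewer cells of a type and less RNA per cell cannot be told apart.

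Dusp1, the nuclear phosphatase also known as MKP-1, dephosphorylates MAP kinases and is itself induced early. Of the 10 members only Dusp1 had groups that did not overlap. It was at 0.17, 0.083, 0.0295 and 0.11 in the controls and at -0.044, -0.12, -0.17 and -0.0295 in the VEGF-labelled arrays. All 4 VEGF-labelled arrays lay below all 4 controls, with a gap of 0.059 between control 3 and VEGF 4, and the groups were apart on the lower side in 4.71% of all genes. The means were 0.100 ± 0.060 and -0.090 ± 0.066 (SD, n = 4 each). The difference was -0.19 with an SE of 0.046, a 95% interval from -0.29 to -0.086 and a fold of 0.877 (0.816 to 0.942). It did not pass over all genes (limma, unadjusted p = 0.0025, adjusted p = 0.243, from 0.127 to 0.616 over all alternatives), but its size exceeded that of 93.7% of genes.

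Markers of other cells also differed in mean between the groups, though 0 passed the limma test over all genes. All 9 interneuron markers had lower means in the VEGF-labelled arrays, 6 of them with groups apart, where 4.71% of all genes lay, and their mean value lay between 0.029 and 0.48 in the controls and between -0.86 and -0.18 in the VEGF-labelled arrays. Control 1 was highest and VEGF 3 lowest in both Dusp1 and the interneuron mean. The radial glia mean was the reverse, lowest in control 1 and highest in VEGF 3. The controls had the same order in Dusp1 and the interneuron mean, while the VEGF-labelled arrays did not. VEGF 2, at -0.12 in Dusp1, was the highest of them in the interneuron mean, at -0.18. VEGF 3 was also lowest in the endothelial, pericyte and smooth muscle, meningeal fibroblast and neuronal activity means. The mean of all genes was lowest there too, at -0.025. The projection neuron mean was highest in control 4 and lowest in VEGF 2. All 8 measured projection neuron markers, of 9, were also lower, and 2 of them, Bcl11b and Cux2, had groups apart, beside 4.71% of all genes. Their means lay between -0.017 and 0.23 in the controls and between -0.47 and 0.067 in the VEGF-labelled arrays. All 8 thalamus markers and all 8 measured erythroid markers, of 11, were higher. Thalamus means ran from -0.35 to 0.29 in the controls and from -0.23 to 0.75 in the VEGF-labelled arrays, and erythroid means from -0.15 to -0.017 and from 0.00067 to 0.65. Of 8 radial glia markers 6 were higher. Pax6, Sox2 and Hes1, 3 of the 8, had groups apart on the higher side, where 2.13% of all genes lay. Means of the list lay between -0.12 and 0.028 in the controls and between -0.0084 and 0.14 in the VEGF-labelled arrays. Higher means were seen in 4 of 9 pericyte and smooth muscle markers and in 6 of 10 microglia and macrophage markers. The same held for 5 of 8 meningeal fibroblast and 1 of 6 choroid plexus markers. P2ry12, 1 of the 10 microglia and macrophage markers, had groups apart on the lower side, beside 4.71% of all genes. Centred values do not show whether a marker is at background, and the part of any of these cells in the Dusp1 difference was not tested.

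**Figure D2:**
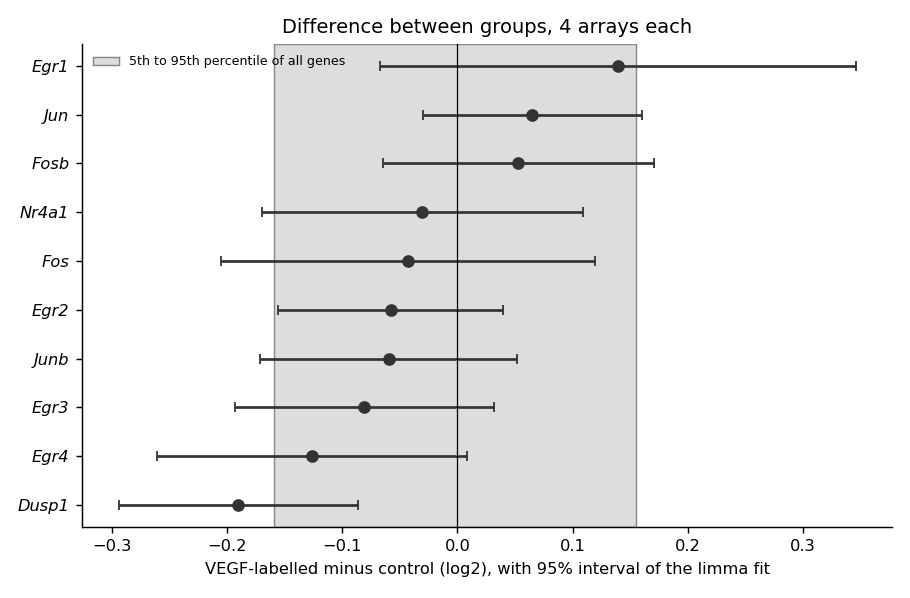
Difference between the groups on the log2 scale (horizontal axis), VEGF-labelled minus control, with the 95% interval of the limma fit, for the 10 genes in order of the difference. The grey band runs from -0.16 to 0.15, the 5th to 95th percentile of the differences of all genes. The interval of Dusp1 alone lies wholly on one side of 0, and that of Egr4 ends at 0.0084.

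The 10 genes did not vary as 1 block. Of 45 pairs of members, 27 had a Pearson's r above 0 and 18 below 0 over the 8 arrays, with a median of 0.276. By an exact permutation test with Benjamini-Hochberg adjustment over the 45 pairs, 3 passed for r and 0 for Spearman's rho. How often pairs of other genes reach such an r in these arrays was not tested, so whether the count is particular to the members is not known. Junb and Egr4 gave r = 0.921 (exact permutation p = 0.0020, adjusted p = 0.0472) and rho = 0.857 (exact permutation p = 0.011, adjusted p = 0.241). Their r was 0.902 without control 3 and VEGF 2, whose Junb values were the most extreme, and 0.921 with the group means removed.

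Junb and Egr2 gave r = 0.901 (exact permutation p = 0.0025, adjusted p = 0.0472) and rho = 0.881 (exact permutation p = 0.0072, adjusted p = 0.241), with r = 0.82 without the same arrays and 0.876 with the group means removed. Egr3 and Egr4 gave r = 0.883 (exact permutation p = 0.0032, adjusted p = 0.0472) and rho = 0.81 (exact permutation p = 0.022, adjusted p = 0.245). For this pair r was 0.828 with the group means removed. Without VEGF 2 and VEGF 3, whose Egr3 values were the most extreme, it was 0.547, so much of the relation rests on those arrays. Groups of 4 are too small for a correlation of their own. VEGF 2, the array of widest interquartile range, was lowest in Junb, Egr2, Egr3 and Egr4 and highest in Egr1, and whether its wider spread has a part in these relations was tested only by leaving it out as above.

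Jun stood farthest from this group. The r of Jun with the mean of the other 9 members was -0.652, that of Egr1 -0.243 and that of Fosb -0.168, against 0.763 for Junb, 0.713 for Egr2 and 0.656 for Egr4, which describes 8 arrays and carries no test. By array, the mean of the 10 members was highest in control 2, at 0.061, where 8 members lay above their own median, and lowest in control 3, at -0.062, where 8 lay below. Both are controls, so the spread of the member mean within the control group covered that of the VEGF-labelled arrays, -0.052 to 0.012.

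Xist, the RNA of the inactive X chromosome, was at 5.27 in control 3, 5.42 in VEGF 2 and 5.11 in VEGF 3, and between -0.19 and 0.14 in the other arrays, so the groups held 1 and 2 arrays of a female pattern. These 3 arrays had the lowest member means, -0.062, -0.052 and -0.040, and all others lay above 0. The arrays left out for the pairs above, control 3, VEGF 2 and VEGF 3, are the same 3. This split was seen in the data, and its part in the member mean and in the relations between members was not tested. With Xist as a covariate the median difference of the members was -0.028 and the difference of Dusp1 -0.17.

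**Figure D3:**
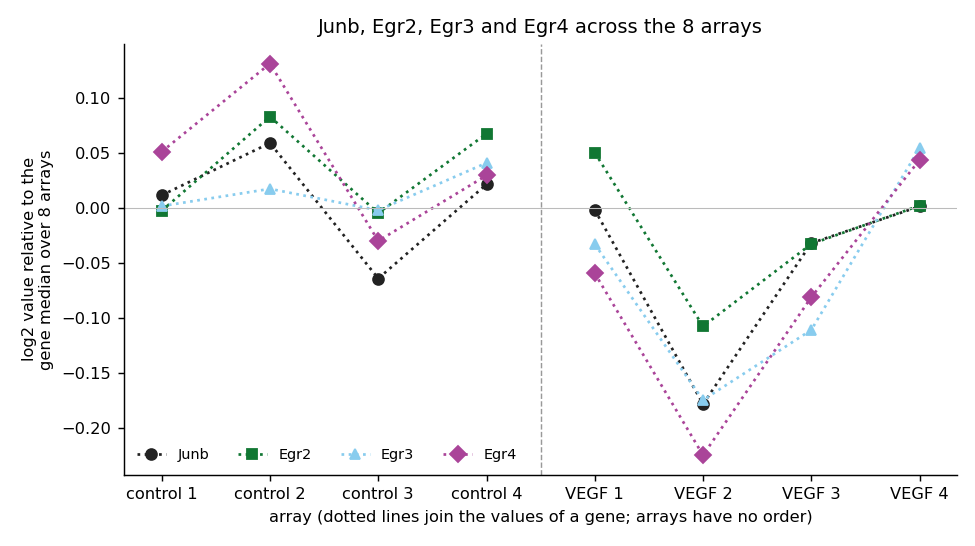
Values of Junb, Egr2, Egr3 and Egr4 in each array (horizontal axis), as log2 relative to the gene's median over the 8 arrays (vertical axis); dotted lines only join the values of 1 gene. All 4 genes are lowest in VEGF 2, between -0.22 and -0.11, and lie between 0.0016 and 0.055 in VEGF 4.

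Most genes of the pathway lists around the members also had overlapping groups. The heat shock list, given last, leaned to the higher side, unlike the members. Of the 14 partners of AP-1 and EGR proteins, 5 had higher and 9 lower means with a median difference of -0.018. Groups were apart in 0 of them, beside 6.84% of all genes. Jund, the least inducible Jun gene, differed by -0.11, the EGR corepressor Nab2 by -0.13, the stress-induced factor Atf3 by 0.092 and the Fos relative Fosl2 by -0.17 (limma, adjusted p from 0.345 to 0.528 in these 4), and Fosl2 by -0.094 without control 1.

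Other early response genes, 27 of them, had 9 higher and 18 lower means and a median of -0.031. Groups were apart in 3 of them, Klf6 on the higher side and Ccn1 and Nfil3 on the lower, where 2.13% and 4.71% of all genes lay. Klf6, a zinc finger factor of injury responses and vessel remodelling, was at -0.28, -0.060, -0.17 and -0.41 in the controls and at 0.22, 0.37, 0.060 and 0.13 in the VEGF-labelled arrays. Its difference was 0.43 with an SE of 0.086 (limma, adjusted p = 0.243, from 0.118 to 0.616 over all alternatives). Control 2 and VEGF 3, at -0.060 and 0.060, came closest to each other.

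Ccn1, a secreted matricellular protein also known as Cyr61 and a target of SRF and YAP, was at 0.12, 0.061, 0.11 and 0.25 in the controls and at -0.14, -0.12, -0.30 and -0.061 in the VEGF-labelled arrays, a difference of -0.29 with an SE of 0.060 (limma, adjusted p = 0.243, from 0.105 to 0.616). Nfil3, a bZIP repressor, differed by -0.17, and Myc, the growth-promoting factor, by -0.18 (limma, adjusted p = 0.243 and 0.317). Nr4a2, the relative of Nr4a1 that marks subplate and dopamine neurons, differed by 0.14 and Ier2 by 0.018 (limma, adjusted p = 0.587 and 0.922), each with overlapping groups.

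Genes of neuronal activity, 11 in all, had 3 higher and 8 lower means and a median of -0.071. Groups were apart in 0 of them, beside 6.84% of all genes. Arc, a cytoskeletal protein of active synapses, differed by -0.088, the activity-dependent factor Npas4 by -0.071 and the neurotrophin gene Bdnf by -0.031 (limma, adjusted p = 0.557, 0.672 and 0.83). Inhba, the activin subunit, was at 0.33, 0.12, -0.069 and 0.39 in the controls and at -0.18, -0.38, -0.31 and 0.069 in the VEGF-labelled arrays. Only VEGF 4 reached into the range of the controls, and the difference was -0.39 with an SE of 0.12 (limma, adjusted p = 0.265, from 0.125 to 0.632). The neuritogenic Nrn1 differed by 0.11 and the prohormone convertase Pcsk1 by -0.16 (limma, adjusted p = 0.568 and 0.605). Without VEGF 2 the differences of Arc, Bdnf and Nrn1 were -0.047, -0.0015 and 0.056, and without VEGF 3 those of Npas4 and Pcsk1 were -0.032 and -0.063.

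The other MAP kinase phosphatases listed all had overlapping groups. Of 9 genes, 4 had higher and 5 lower means, and the median was -0.0035. Groups were apart in 0 of them, beside 6.84% of all genes, and 0 had an unadjusted limma p under 0.05, beside 12.5%. With 9 genes, 0 lies near these shares. Dusp7 differed by -0.084, Dusp8 by -0.078, Dusp9 by 0.094 and Dusp16 by 0.16 (limma, adjusted p from 0.445 to 0.620). Without VEGF 3 the differences of Dusp8, Dusp9 and Dusp16 were -0.033, 0.058 and 0.079, and without control 1 that of Dusp9 was 0.048. Their differences from Dusp1 were not tested.

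Upstream kinases and transcription factors, 22 measured of 30 listed, had 10 higher and 12 lower means and a median of -0.0053. Groups were apart on the lower side in 3 of them, Srf and Rps6ka5 among them, where 4.71% of all genes lay. Srf, the factor that binds CArG boxes of immediate early genes, was at 0.11, 0.050, 0.0067 and 0.13 in the controls and at -0.11, -0.11, -0.13 and -0.0067 in the VEGF-labelled arrays. As in Dusp1, control 3 and VEGF 4 came closest to each other. The difference of Srf was -0.16 with an SE of 0.043 (limma, adjusted p = 0.243, from 0.123 to 0.616).

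Rps6ka5, the kinase MSK1 that phosphorylates CREB and histone H3, differed by -0.37 with an SE of 0.10, the CREB relative Atf1 by 0.25 and the CREB coactivator Crtc1 by -0.20 (limma, adjusted p = 0.243, 0.260 and 0.281). The remaining gene with groups apart on the lower side, named after its values were seen, was Mapk8, the Jun kinase JNK1, at -0.094 with an SE of 0.033 (limma, adjusted p = 0.314).

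Heat shock genes, which respond to stress and handling of tissue as several immediate early genes do, had 7 of 9 measured members higher, beside 43.3% of all genes, and a median of 0.098, the highest of the 6 lists. Hsph1 and Hspd1, chaperones of cytosol and mitochondria, had groups apart on the higher side, where 2.13% of all genes lay, with differences of 0.24 and 0.20, and Hsp90aa1 and Hspe1 differed by 0.098 and 0.11 (limma, adjusted p = 0.243, 0.273, 0.380 and 0.519). Without VEGF 3 the difference of Hspe1 was 0.058. The other measured genes of the list all had overlapping groups. Hspa1a, Dnajb1 and Bag3 differed by 0.052, 0.029 and 0.11, and Hspb1 and Hspa8 by -0.059 and -0.019. The mean of the heat shock list lay between -0.048 and -0.027 in the controls and between 0.0047 and 0.10 in the VEGF-labelled arrays. In the same arrays the mean of the 10 members lay between -0.062 and 0.061 and between -0.052 and 0.012. A relation between the lists, or a part of tissue handling in either, was not tested.

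**Figure D4:**
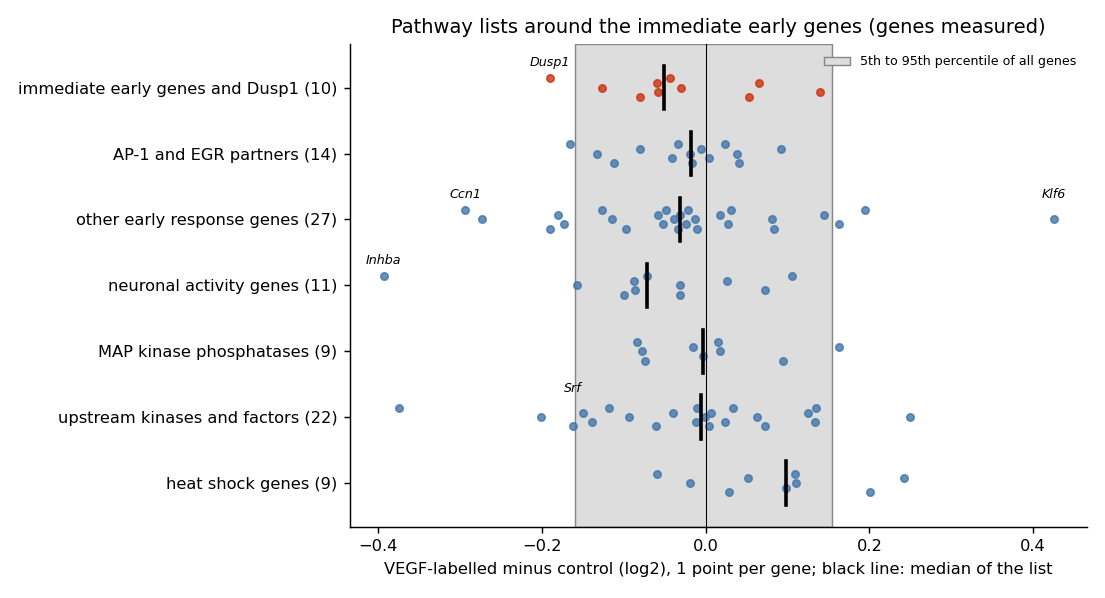
Difference of each gene on the log2 scale (horizontal axis), VEGF-labelled minus control, for the 10 genes and 6 pathway lists (vertical axis, with the number of genes measured); 1 point is 1 gene and the black line the median of the list. The grey band runs from -0.16 to 0.15, the 5th to 95th percentile of all genes, and the 5 genes named in the plot, Dusp1, Klf6, Ccn1, Inhba and Srf, are some of those outside it.

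The genes whose values most resembled the mean of the 10 members over the 8 arrays, by Pearson's r and leaving out predicted genes and clone names, were Slc7a5, a subunit of the large neutral amino acid transporter (r = 0.982), Tmem174 (0.970), the secreted protein C1qtnf1 (0.969), the fatty acid transport protein Slc27a4 (0.968) and the cytochrome Cyp2s1 (0.966). They were picked as the closest of 19938 genes, so r describes the choice. Slc7a5 was at 0.024, 0.094, -0.14 and 0.035 in the controls and at -0.021, -0.12, -0.10 and 0.021 in the VEGF-labelled arrays. Like the member mean, it was highest in control 2 and lowest in control 3, and its difference between the groups was -0.058 (limma, adjusted p = 0.758).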

How the data were processed

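RNA of brain cortex at E16 (120 ng of total RNA per sample) was labelled with the Ambion WT Expression and GeneChip WT terminal labelling kits, per the labels' protocols. The values the authors deposited are on a log scale, taken as log2 although no source states the base, with the median of each of 28853 probe sets over the 8 arrays within 5e-07 of 0. Affymetrix Expression Console and the build mm8 appear in the submitters' processing notes, while no source used here describes the summarisation. Centred values allow no filter on dim probe sets, and the number of arrays limits the precision.

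Of the probe sets, 21789 had 1 gene symbol, 1621 several and 5443 none, and only the first were used. Entrez identifiers gave current symbols from the RefSeq table of GRCm38.p6 (21698 matched), and probe sets of a gene were averaged. Groups came from the sample titles. The test was limma 3.58.1 in R 4.3.3 without covariates, with Benjamini-Hochberg adjustment over 19938 genes, checked on simulated data. That check required recovery only of changes far larger than those of the members, so it gives no assurance at their size. An SE or 95% interval is that of the moderated fit. Pairs of members were tested in Python 3.11.15 with exact two-sided permutation of the 8 arrays.

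The members and lists were chosen with earlier results of these data known. Named were all members, Vegfa, the 4 genes of smallest p in each pathway list, Ier2, Nr4a2, Arc, Npas4 and Bdnf whatever their values, and the 5 genes closest to the member mean. The remaining heat shock genes were named after their values were seen. Alternatives were the replicate number as a block, median centring of arrays, quantile normalization, array weights, a prior with trend and robust fitting, Xist as a covariate, the methods' t-test, the probe set of widest spread, and leaving out each array. Added after seeing the data were leaving out control 2 and VEGF 2 together and the alternatives for the list genes, Slc7a5 and Vegfa. Listed genes without a probe set of their own under this rule were not analysed here.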

Additional observations from a re-analysis of the deposited data

Results flagged for a closer look

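In groups of 4 arrays, the gap between an end array and its neighbour was above the 95% limit of Dixon's ratio, the gap over the whole range, in 3 of 90 groups checked, and chance alone gives about 1 in 20. They were Dusp8 in VEGF 3 at -0.18, Hspe1 in control 2 at -0.17 and C1qtnf1 in control 3 at -0.23. None of the 10 members was among them.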

How the results depend on the processing

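No member passed an adjusted p of 0.05 under any of the 17 alternatives, and Dusp1 kept its direction and an unadjusted p under 0.05 in all 17, between -0.21 and -0.16. Over all genes the count that passed ranged from 0 to 10 when 1 array was left out, with 10 without VEGF 4 and 0 members among them. The median difference of the 10 members ranged from -0.078 to -0.025 with 1 array left out, and was -0.032 after quantile normalization, -0.028 with Xist as a covariate and -0.015 without control 2 and VEGF 2, where Junb was at -0.00042, Egr2 at -0.014 and Egr4 at -0.049. Leaving out 1 array turned Fos (-0.11 to 0.0089), Nr4a1 (-0.073 to 0.023) and Ier2 (-0.0076 to 0.038); the cause was not tested. Members at an unadjusted p under 0.05 numbered 1 to 3, and 3 without VEGF 4, with Egr3 and Egr4 beside Dusp1. With the replicate block, 0 members and 0 genes passed, Egr1 at 0.14 had an unadjusted p of 0.023 (limma, adjusted p = 0.282), and the median difference stayed at -0.050. No label says what a shared replicate number means, and the values do not settle whether the numbers pair the arrays. Same-numbered arrays deviated from their group means with correlations of 0.052, -0.13, 0.454 and 0.301 over genes. Arrays of different numbers did so with correlations from -0.422 to 0.518. Signal over background is unknown, so a dim member cannot be told from a steady one.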
